A study of Macaca fascicularis with 86 samples.

Results

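The levels of 6 genes, the posterior factors CDX1, CDX2, CDX4 and NKX1-2 together with SALL3 and GREB1, were followed across all 86 captured regions. They were chosen by name, with earlier results of these data known. All 6 of 6 were found among the 17023 genes of the table and passed the filter for testing (10 or more regions with a TPM of 1 or more, 15216 genes). TPM is a read share scaled by transcript length, so levels of different genes can be set side by side.

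The regions were cut by laser from cryosections of gastrulating crab-eating macaque embryos, and polyadenylated RNA was sequenced from each by Geo-seq, a method for small captured tissue pieces. There were 15 regions (4 sections) of a first embryo at day 18 of development, E18 embryo 1, then 35 regions (6 sections) of E18 embryo 2 and 36 regions (7 sections) of a single embryo at day 20, the E20 embryo. No embryo carried a stated treatment or genetic change, and the labels give day of development, embryo, section number and sector number, with the tissue as embryo only. They name no germ layer and no direction of the numbering, so sections and sectors are given here by number alone. Regions of an embryo are not independent samples. The embryo is the replicate, with 2 at E18 and 1 at E20, and fewer cells of a type and less RNA per cell cannot be told apart in such bulk regions.

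CDX1, CDX2 and CDX4 are the caudal-type homeobox factors. In vertebrate embryos they act downstream of WNT, FGF and retinoic acid signals in the posterior growth zone, the tissue around the late primitive streak from which trunk and tail are laid down, and they drive posterior HOX genes. CDX2 is also a factor of trophectoderm and of the later intestine. NKX1-2 is a homeobox gene known from the caudal epiblast beside the streak and from progenitors of spinal cord and paraxial mesoderm. SALL3 is a zinc finger factor of the spalt family, whose relative SALL4 is a factor of pluripotent cells. GREB1 was first known as an oestrogen-induced gene and is a cofactor of the oestrogen receptor.

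Some facts of the whole table bear on what follows. The number of genes at a TPM of at least 1 was 7815 to 11516 per region in E18 embryo 1, 11091 to 13958 in E18 embryo 2 and 6194 to 10950 in the E20 embryo. Sections 1 to 5 of the E20 embryo (28 regions) differed from the rest in the median of 12 gut and yolk sac endoderm markers. Their summed TPM was 62.7 to 108009 there (median 38291), against 11.8 to 302 in sections 6 and 7 (8 regions, median 26.8). It was 3.71 to 5747 in E18 embryo 1 (median 226) and 15.9 to 542 in E18 embryo 2 (median 87.2), so the ranges overlapped. For 11 epiblast markers the summed TPM lay between 11.4 and 134 in E20 sections 1 to 5 and between 86.1 and 1168 in E20 sections 6 and 7. The E20 embryo is therefore described in these section ranges, a split chosen with earlier results known.

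CDX1 stayed below 1 TPM in all 15 regions of E18 embryo 1 and reached it in most regions of E18 embryo 2. In E18 embryo 1 its lowest, median and highest TPM were 0, 0 and 0.234, and 10 of 15 regions listed it at 0. In E18 embryo 2 they were 0, 2.39 and 23.2, with 26 of 35 regions at a TPM of at least 1. The ranges overlapped only at the low end, and with 1 embryo on each side the difference has no replicate check. In the E20 embryo CDX1 reached 1.61 in sections 1 to 5, where 23 of 28 regions listed it at 0, and 2.95 in sections 6 and 7.

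The highest CDX1 values of E18 embryo 2 were 23.2 in section 5, sector 7, then 17.2 in section 3, sector 1, and 16.8 in section 5, sector 6. These were regions rich in TBXT, the T-box factor that defines the primitive streak, with 221, 111 and 173 TPM of it. The next region, section 6, sector 7, had 12.9 TPM of CDX1 with 1.88 of TBXT and 198 of COL3A1, a collagen of mesenchyme. CDX1 was therefore high in both TBXT-rich and collagen-rich captures.

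CDX2 was listed at 0 in 17 of 86 regions, against 34 for CDX4 and 41 for CDX1. Its lowest, median and highest TPM were 0, 4.66 and 16.2 in E18 embryo 1, 0, 3.55 and 88.2 in E18 embryo 2, 0, 1.28 and 7.44 in E20 sections 1 to 5, and 0, 2.57 and 6.75 in E20 sections 6 and 7. All 4 ranges overlapped, and every value above 16.2 TPM belonged to E18 embryo 2. The highest value, 88.2 in section 6, sector 7, came with 53.8 TPM of ISL1, an amnion and lateral mesoderm factor, and the next, 57.3 in section 5, sector 5, with 162 of ISL1 and 522 of COL3A1. Section 5, sector 6 had 40.6 TPM of CDX2 with 173 of TBXT and 1.83 of COL3A1, and section 3, sector 1 had 35.9 with 111 of TBXT. High CDX2 was thus recorded in captures of both kinds, as for CDX1.

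CDX4 was low in most regions. Its lowest, median and highest TPM were 0, 0.721 and 7.94 in E18 embryo 1, 0, 0.580 and 26.6 in E18 embryo 2, and 0, 0.377 and 2.22 in E20 sections 6 and 7. In E20 sections 1 to 5, 19 of 28 regions listed it at 0 and the highest value was 6.40. All ranges overlapped. Its highest values, 26.6 and 15.6, fell in the regions that were also highest in CDX2, section 6, sector 7 and section 5, sector 5 of E18 embryo 2.

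NKX1-2 had the highest median of the 6 genes in each E18 embryo. Its lowest, median and highest TPM were 0, 5.05 and 31.2 in E18 embryo 1 and 0, 11.1 and 105.4 in E18 embryo 2, where 31 of 35 regions reached a TPM of 1. It was listed at 0 in 28 of 28 regions of E20 sections 1 to 5, where TBXT and SALL3 were listed at 0 in all 28 as well. The 8 regions of E20 sections 6 and 7 held 0.961, 8.78, 2.17 and 24.6 TPM in section 6 and 6.26, 0, 26.5 and 0 in section 7, in order of sector number. In the E20 embryo NKX1-2 was thus recorded in sections 6 and 7 alone, over a range that overlapped both E18 embryos.

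The highest NKX1-2 values were 105.4, 96.4 and 93.1, all in sector 3 of neighbouring sections (4, 3 and 2) of E18 embryo 2. In section 5 the high value moved to sector 6, with 86.3 TPM, while sector 3 was listed at 0. In the E20 embryo the region with 26.5 TPM (section 7, sector 3) also held 63.9 of TBXT and 98.8 of MESP1, a factor of nascent mesoderm. The other high one, section 6, sector 4, with 24.6 TPM, held 3.26 of TBXT, 455 of the amnion gene GABRP and 1032 of COL3A1.

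SALL3 was low in E18 embryo 1, with a lowest, median and highest TPM of 0, 0.777 and 4.58, and higher in E18 embryo 2, with 0, 3.96 and 23.3. In E20 sections 6 and 7 it ran from 0.110 through a median of 1.08 to 2.92. The ranges overlapped, and 32 of 35 regions of E18 embryo 2 but 4 of 15 of E18 embryo 1 reached a TPM of 1. The highest values were 23.3 in section 3, sector 1 and 17.1 in section 2, sector 3, both also rich in NKX1-2, with 68.1 and 93.1 TPM.

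GREB1 was listed at 0 in 0 of 86 regions, the only member of which this held. Its lowest, median and highest TPM were 0.468, 1.69 and 10.7 in E18 embryo 1, 1.64, 5.56 and 37.5 in E18 embryo 2, 0.796, 4.28 and 31.9 in E20 sections 1 to 5, and 0.716, 3.65 and 14.2 in E20 sections 6 and 7. The ranges overlapped, with the lowest median in E18 embryo 1. In E18 embryo 2 its highest value was again in section 6, sector 7 (37.5), followed by sector 5 of sections 2, 5 and 4 (28.8, 27.6 and 27.3). The 31.9 TPM of the E20 embryo came from section 2, sector 3, the region with the fewest genes detected (6194).

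**Figure D1:**
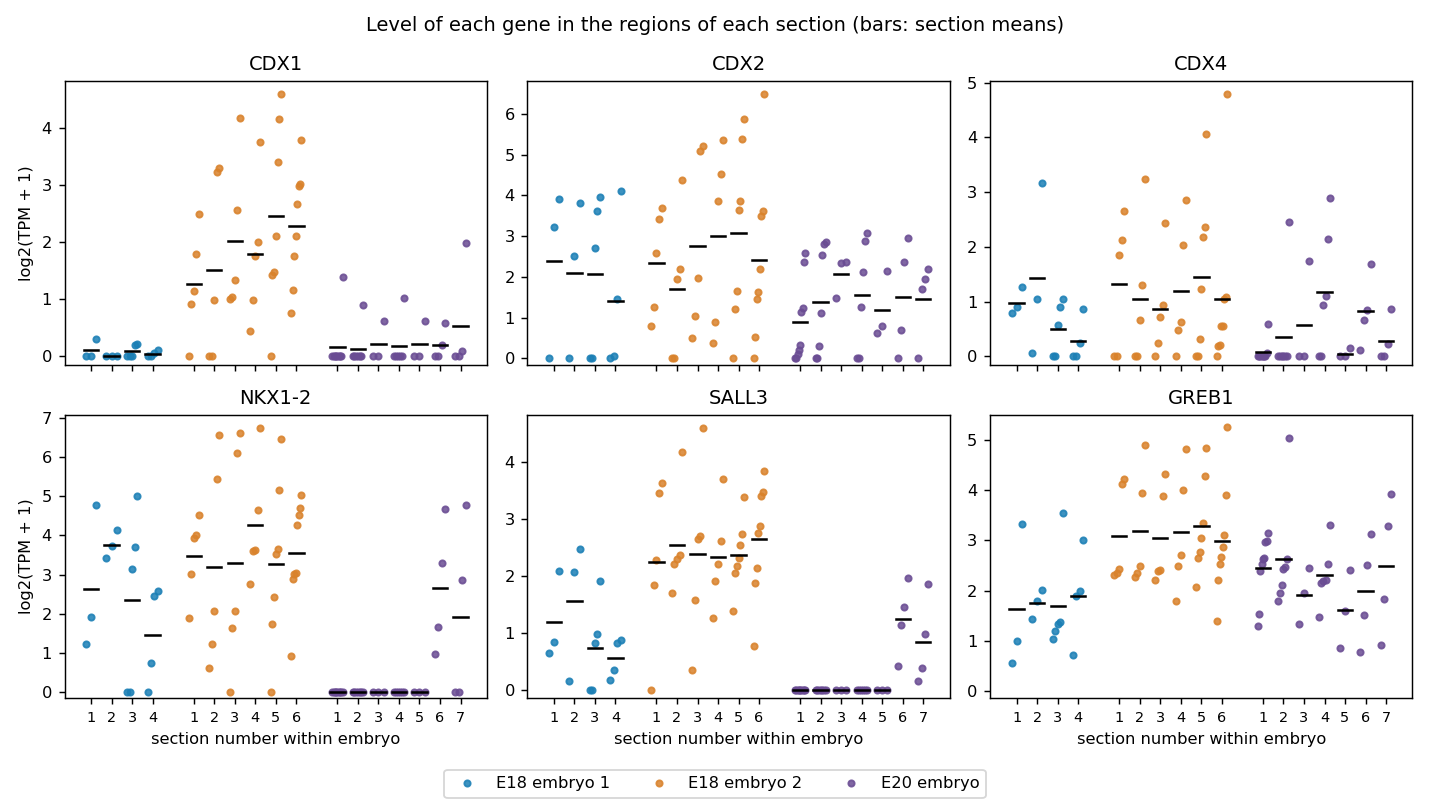
Level of each gene, as log2(TPM + 1), in every region, arranged by section number within the embryo; points are regions and black bars are section means. NKX1-2 and SALL3 are at 0 in all 28 regions of E20 sections 1 to 5, and CDX1 does not exceed 0.234 TPM in E18 embryo 1.

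The stage comparison asked whether the genes differed between E18 and E20. Values were averaged as log2(TPM + 1) over the regions of each embryo and the E18 pair was compared with the single E20 embryo (limma, Benjamini-Hochberg over all genes tested). NKX1-2 fell by 2.47 on the log2 scale (SE 0.74, adjusted p = 0.0117 by limma) and was the 1 member of 6 called lower, where 8.75% of all genes tested were. SALL3 had a difference of -1.46 (SE 0.83, adjusted p = 0.294 by limma), CDX2 of -0.92, CDX1 of -0.80, CDX4 of -0.49 and GREB1 of -0.13, and none of these 5 passed. The median over all genes was -0.44, and after quantile normalization the values of CDX4 and GREB1 turned positive (0.034 and 0.56).

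The NKX1-2 difference rested on which E20 sections entered. With E20 sections 6 and 7 only it was -0.70 (SE 0.67, adjusted p = 1.00 by limma), and the call was also lost with medians over regions (-3.10, adjusted p = 0.374) and without the mitochondrially encoded genes (-2.56, adjusted p = 0.123). Only the E18 pair gives a spread here, with 1 residual degree of freedom per gene, and limma moderates that spread over all genes. A gene's own spread counted for little. CDX1 and CDX4 had SEs of 0.81 and 0.82, with mean levels in E18 embryos 1 and 2 of 0.058 and 1.95 for CDX1 and 0.72 and 1.16 for CDX4. The adjusted p of NKX1-2 therefore rests mainly on the spread pooled over genes, and its own replicates were not tested alone. Endoderm markers moved with the same sections, as given above, and their part in the difference was not tested.

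Of 19 tested genes of a posterior growth zone list, 4 fell with the stage and none rose. They were CYP26A1, which degrades retinoic acid (-3.48), FGF17, an FGF ligand (-3.44), WNT5B, a WNT ligand (-2.37), and SP5, a WNT target (-2.23). The list's median difference was -1.54, beside -0.44 over all genes. Of the members' relatives SALL1, SALL2 and SALL4 fell (by 1.53, 2.45 and 2.26), and GREB1L, at -1.22, did not pass. With E20 sections 6 and 7 only, no gene of either list passed, so these counts share the limit of NKX1-2.

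The section trend asked whether a gene changed along the numbered sections, as a slope from the first (0) to the last (1) section with embryo as a block. None of the 6 members passed in limma, with 1 at an unadjusted p under 0.05, where 10.7% of all genes tested passed in either direction and 8.81% with a rise. CDX1 had a slope of 0.53 (SE 0.27, adjusted p = 0.199 by limma), NKX1-2 of 0.65 (SE 0.49), SALL3 of 0.33, CDX2 of 0.26, CDX4 of 0.01 and GREB1 of -0.13. In the growth zone list 6 of 19 genes rose toward the last section, FGF17 (5.05), CYP26A1 (2.98), TBXT (2.46), SP5 (2.28) and FGF4 (2.21) most. SALL4 rose too (1.08), and 0 of 31 HOX genes passed. Without the E20 embryo 1 growth zone gene was left and SALL4 no longer passed.

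Along sections NKX1-2 had slopes of opposite sign in different embryos. Its slope was -1.56 in E18 embryo 1 (SE 1.10), 0.18 in E18 embryo 2 (SE 0.73) and 2.12 in the E20 embryo (SE 0.74). SALL3 followed the same order, with -0.85, 0.23 and 0.97. The difference between embryos did not pass for either (adjusted p = 0.110 and 0.170, limma's moderated F test), nor for any of the 6 members, where 10.1% of all genes tested did. Without the E20 embryo the pooled slopes of NKX1-2 and SALL3 were -0.36 and -0.10.

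The sector trend did the same for the numbered sectors within a section, with the section as a block. None of the 6 members passed in limma, where 3.24% of all genes did in either direction and 2.48% with a rise, though 4 members had an unadjusted p under 0.05. CDX2 had a slope of 1.36 from the first to the last sector (SE 0.48, adjusted p = 0.0936 by limma), GREB1 of 0.85 (SE 0.29, adjusted p = 0.0860), CDX1 of 0.77 (SE 0.26, adjusted p = 0.0887) and SALL3 of -0.66 (SE 0.24, adjusted p = 0.109). CDX4, at 0.59, and NKX1-2, at 0.43, had adjusted p-values of 0.311 and 0.702. CDX2 and GREB1 passed with a covariate for how many genes were detected (1.58 and 0.98, adjusted p = 0.0479 and 0.0427) and without E18 embryo 1 (1.58 and 1.31, adjusted p = 0.0390 and 0.00326). The 3.24% above is not the share of all genes in these alternative fits. Without E18 embryo 1 the number called over all genes rose as well, as given in the closing section.

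For CDX2, GREB1, CDX1 and CDX4 the sector slope was steepest in E18 embryo 2. There it was 2.53 for CDX2 (SE 0.76), 1.97 for GREB1 (SE 0.43), 1.73 for CDX1 (SE 0.41) and 1.53 for CDX4 (SE 0.48). In E18 embryo 1 GREB1 sloped the other way (-0.96, SE 0.60) and in the E20 embryo it was 0.70 (SE 0.41). The difference between embryos gave an adjusted p of 0.0766 for GREB1 (limma), and 0.0184 after quantile normalization. None of the 6 members passed that test as deposited, where 0.48% of all genes did. Of 31 HOX genes 10 rose along the sectors, led by HOXB5 (1.94), HOXA9 (1.78), HOXB6 (1.76), HOXB2 (1.75) and HOXA13 (1.63), and of the growth zone list LEF1 (2.10) and EVX1 (1.61). Without E18 embryo 2, 0 of 31 HOX genes and no growth zone gene passed.

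**Figure D2:**
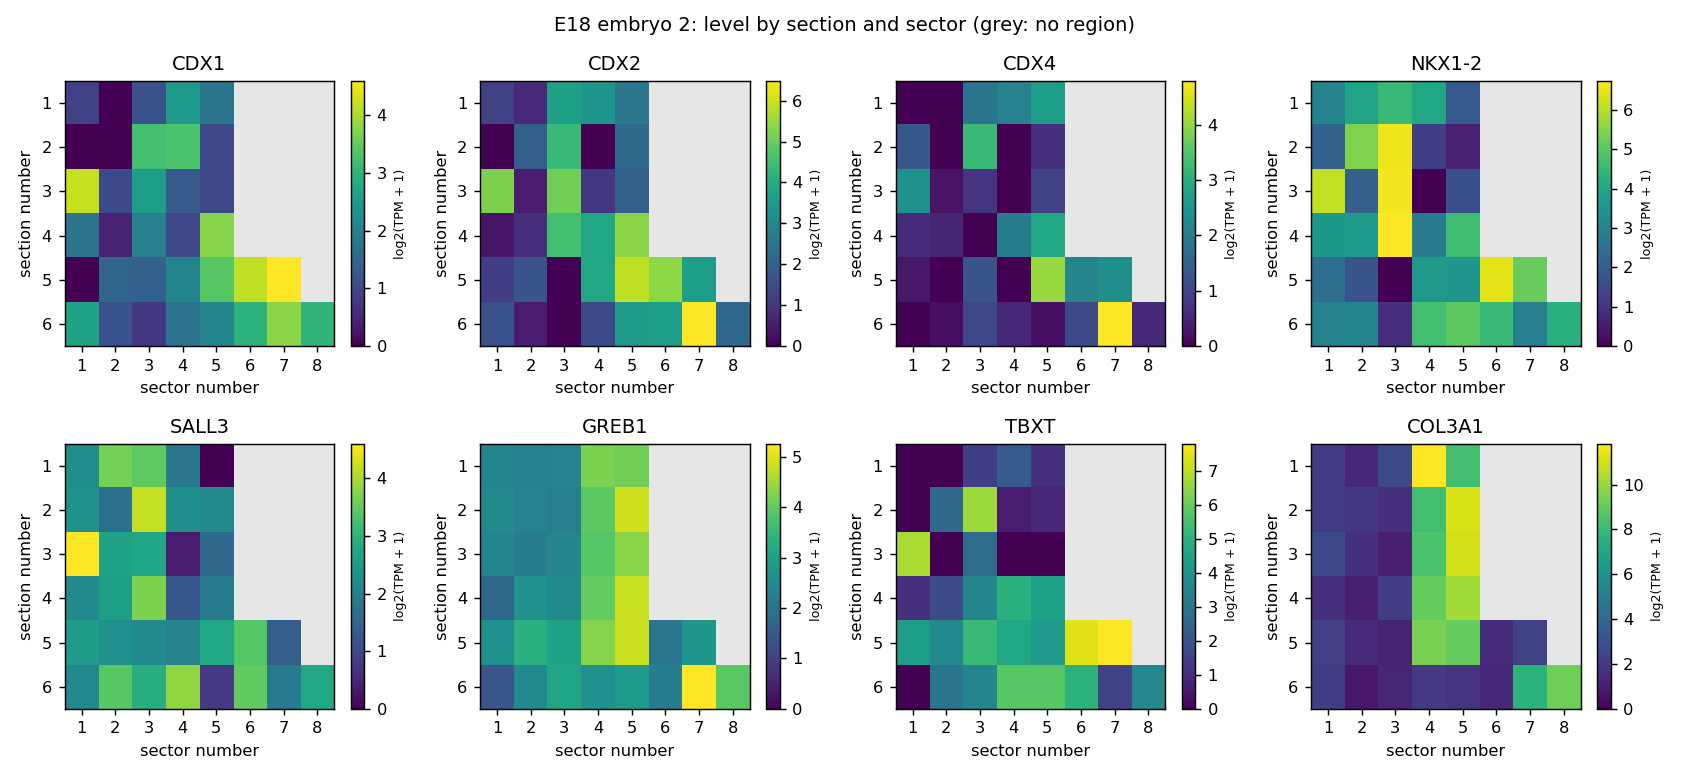
Level in each region of E18 embryo 2, as log2(TPM + 1), by section number (rows) and sector number (columns), with TBXT and COL3A1 beside the 6 genes; each panel has its own colour scale and grey marks positions with no region. NKX1-2 peaks in sector 3 of sections 2 to 4, GREB1 in the sectors rich in COL3A1, and section 6, sector 7 is highest in CDX2 (88.2 TPM), CDX4 (26.6) and GREB1 (37.5).

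The streak comparison asked which of the genes followed TBXT across the 50 E18 regions, with embryo as a block. TBXT itself ran from 0 through a median of 0 to 50.4 TPM in E18 embryo 1 and from 0 through 7.24 to 221 in E18 embryo 2. CDX1 rose with it, by 0.23 log2 units per log2 unit of TBXT (SE 0.06, adjusted p = 0.0396 by limma), and was the 1 member of 6 called, where 1.24% of all genes rose. NKX1-2 had the steeper slope of 0.33 (SE 0.10, adjusted p = 0.107 by limma) and CDX2 of 0.27 (SE 0.11, adjusted p = 0.333). CDX4 had 0.11, SALL3 0.07 and GREB1 -0.03, with adjusted p-values of 0.617, 0.700 and 0.880.

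The calls on TBXT moved with the settings. Compared within sections instead of within embryos, NKX1-2 rose by 0.58 (SE 0.12, adjusted p = 0.00534 by limma) and CDX1, at 0.25, missed the threshold (adjusted p = 0.281). CDX1 also missed it with a pseudocount of 0.1 (adjusted p = 0.136), after quantile normalization (0.0810), without mitochondrially encoded genes (0.106) and without either E18 embryo (0.0761 without embryo 1, 0.950 without embryo 2). In E18 embryo 1, where CDX1 stayed at or below 0.234 TPM, its slope was 0.01, and that of CDX2 was -0.24, against 0.29 and 0.39 in E18 embryo 2. None of the 6 members differed between the E18 embryos in this slope (adjusted p from 0.613 to 0.999), where 0.237% of all genes did.

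In the growth zone list 11 of 18 tested genes rose with TBXT, led by FGF17 (1.14), SP5 (0.71), FGF4 (0.63), RSPO3, which enhances WNT signals (0.53), and WNT8A (0.52). The list's median slope was 0.37, beside 0.02 over all genes and 0.17 over the 6 members. Without E18 embryo 2 the count was 4 of 18, and without E18 embryo 1 it was 9. SALL1 was the 1 of 4 relatives that rose (0.33), and 0 of 4 passed with sections as blocks, without E18 embryo 1 or without E18 embryo 2. In the 8 regions of E20 sections 6 and 7, NKX1-2 had a slope of 0.67 (SE 0.20, adjusted p = 0.621 by limma) and CDX1 of 0.23 (adjusted p = 0.666), and 0 of 6 members passed there.

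CDX2 is also known from extraembryonic tissues, so the genes were set against an amnion score, the mean z-score of 13 amnion markers within an embryo, over the same 50 regions. GREB1 rose by 1.06 log2 units per unit of the score (SE 0.12, adjusted p = 4.31e-10 by limma) and CDX2 by 1.06 (SE 0.31, adjusted p = 0.00725). That is 2 members of 6, where 13.9% of all genes tested rose and 16.4% fell. CDX4 had a slope of 0.47 (SE 0.21, adjusted p = 0.0748), CDX1 of 0.27 (adjusted p = 0.347), SALL3 of -0.40 (SE 0.18, adjusted p = 0.0769) and NKX1-2 of -0.56 (SE 0.33, adjusted p = 0.200). In the 8 regions of E20 sections 6 and 7 GREB1 passed as well (1.15, adjusted p = 0.0307 by limma), and CDX2, at 0.98, did not (adjusted p = 0.0864). These 8 regions come from a single embryo and were fitted as independent samples, so that fit has no embryo replicate. The count of all genes called in it is given in the closing section.

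The GREB1 slope was close in the E18 embryos, 0.92 (SE 0.23) and 1.11 (SE 0.14), while that of CDX2 was 1.73 (SE 0.58) in embryo 1 and 0.79 (SE 0.37) in embryo 2. None of the 6 members differed between the embryos, where 1.64% of all genes did. Without E18 embryo 1 CDX2 no longer passed (adjusted p = 0.133). SALL3 passed as lower without E18 embryo 1 (-0.55, adjusted p = 0.0458) and after quantile normalization (-0.45, adjusted p = 0.0327).

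The amnion score could not be separated from mesenchyme in these captures. The plain mean of the amnion markers, centred within the embryo but not z-scored, moved with that of 12 extraembryonic mesenchyme markers at r = 0.92 over the 50 regions. All 12 of 12 of those mesenchyme markers, COL3A1 among them, rose with the score itself. Of 8 tested trophoblast markers 3 rose with it, with a list median of 0.47 beside -0.03 over all genes, of which 13.9% rose. With one E18 embryo left out, 1 of 8 passed, whichever it was. Which of these tissues the CDX2 and GREB1 slopes belong to cannot be told apart here.

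With TBXT and the amnion score in the same fit, a comparison added after the data were seen, CDX2 rose with both. Its slope was 0.36 on TBXT (SE 0.10, adjusted p = 0.0343 by limma) and 1.30 on the score (SE 0.29, adjusted p = 3.85e-04). CDX1 also passed on TBXT (0.26, adjusted p = 0.00932), and CDX4 passed on the score (0.57, adjusted p = 0.0277). The shares of all genes called in this joint fit are not given here. In the fits with a single term 1.24% rose with TBXT and 13.9% with the score. GREB1 rose with the score alone (1.09), its slope on TBXT being 0.05 (adjusted p = 0.784).

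**Figure D3:**
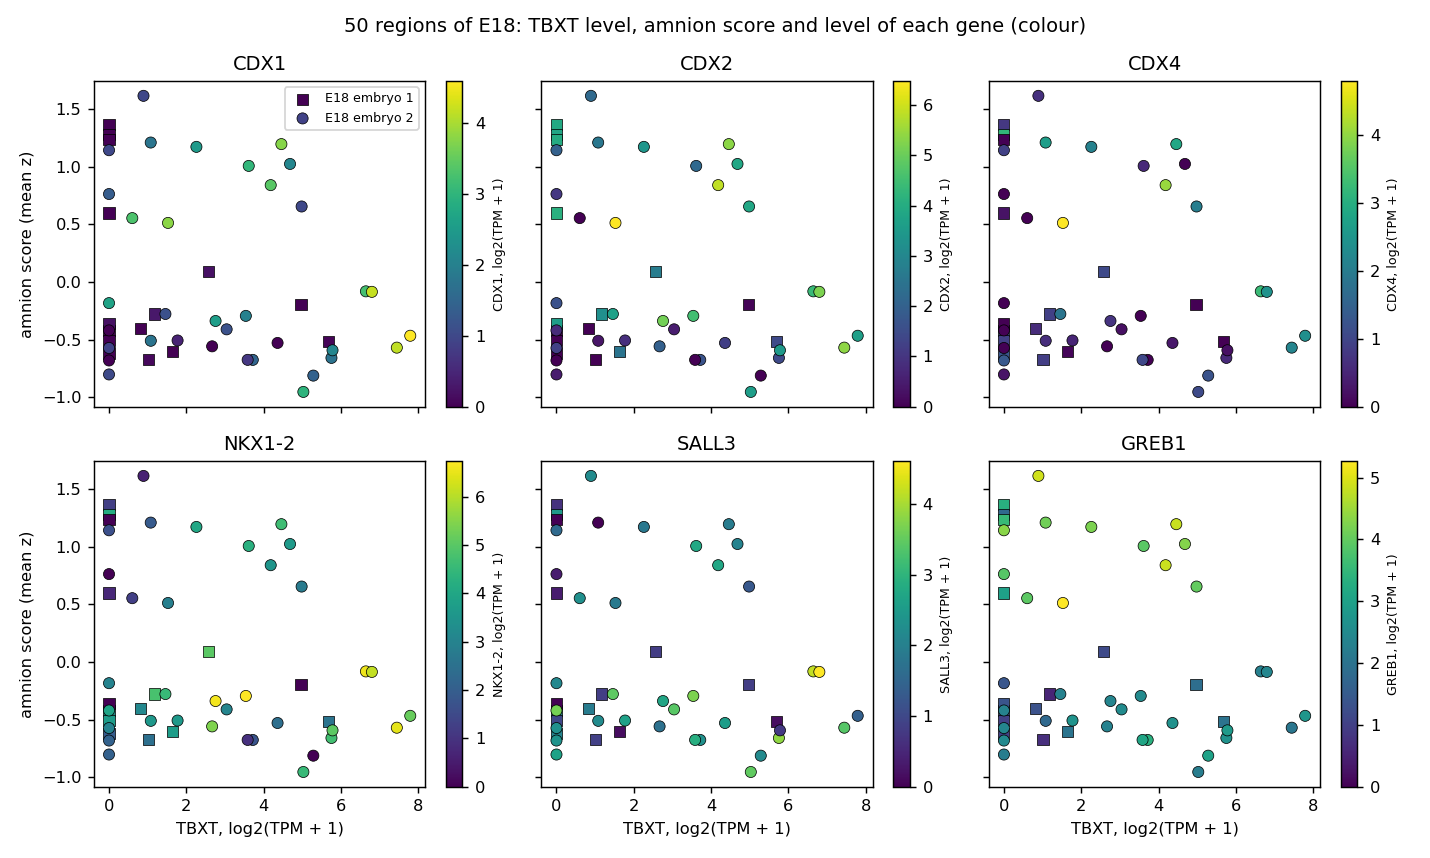
The 50 E18 regions placed by TBXT level (x axis, log2(TPM + 1)) and amnion score (y axis, mean z-score), coloured by the level of each gene on its own scale; squares are E18 embryo 1 and circles E18 embryo 2. GREB1 is bright in the regions of high amnion score, and CDX1 and CDX2 are bright in some regions of high TBXT and some of high score; the 2 regions highest in NKX1-2 (105.4 and 96.4 TPM) have 10.6 and 5.76 TPM of TBXT.

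**Figure D4:**
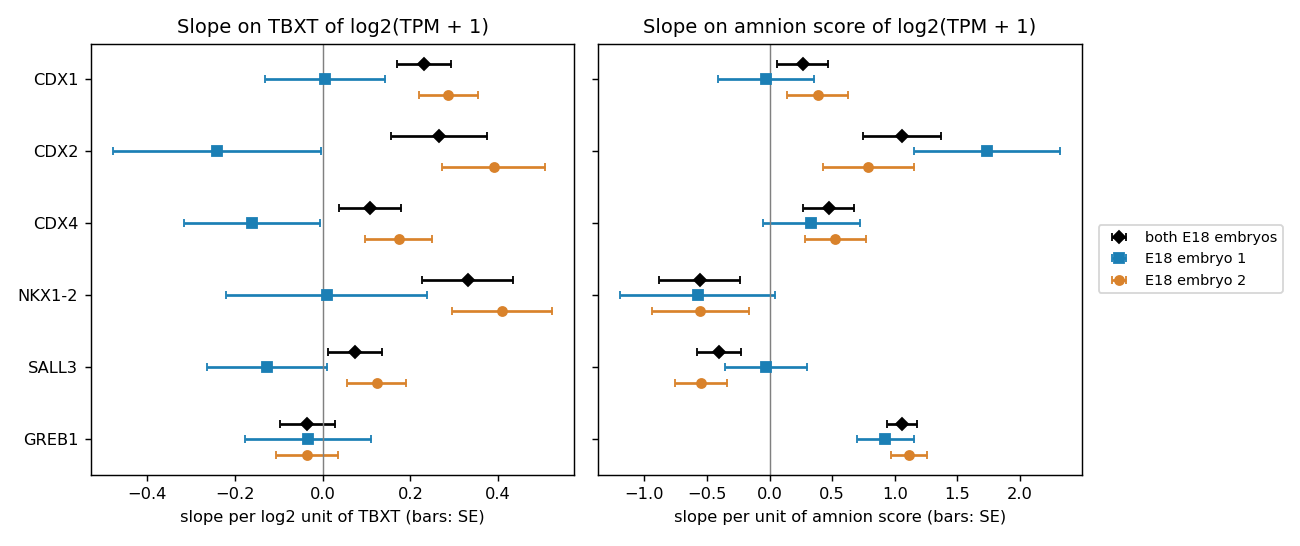
Slopes of the 6 genes on TBXT (left, per log2 unit) and on the amnion score (right, per unit of score) for both E18 embryos together and for each; bars are standard errors. On TBXT the slopes of CDX2, CDX4 and SALL3 lie below 0 in embryo 1 and above 0 in embryo 2, and GREB1 has slopes of 0.92 and 1.11 on the score in embryos 1 and 2.

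The other genes of the HOX and growth zone lists divided along the score. Of 31 HOX genes 27 rose with it, led by HOXA13 (2.25), HOXC8 (2.21), HOXA9 (2.15), HOXB6 (1.92) and HOXA10 (1.92), with a list median of 0.91 beside -0.03 over all genes. In E18 embryo 1 alone 4 of 31 passed. Of the growth zone list 3 rose, LEF1 (0.99), AXIN2 (0.80) and the Notch ligand DLL1 (0.74), and 4 fell, FGF17 (-2.69), CYP26A1 (-2.55), FGF8 (-1.14) and SP5 (-0.97). Among the relatives GREB1L rose (0.97), while SALL2 (-0.95), SALL1 (-0.76) and SALL4 (-0.50) fell, as did 10 of 11 epiblast markers. With E18 embryo 1 alone 0 of 19 growth zone genes passed in either direction, 0 of 4 relatives and 1 of 11 epiblast markers fell, and 1 relative rose.

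In E18 embryo 1 CDX2 ran beside trophoblast markers too. Its correlation with the mean of the trophoblast list was 0.67 over 15 regions, against 0.25 over the 35 of E18 embryo 2. CGA, the alpha subunit of placental and pituitary hormones, was at 8.24 to 20.1 TPM in the 5 regions of embryo 1 that listed CDX2 at 0. It was at 1745 TPM in section 1, sector 1 (CDX2 14.0), 4737 in section 2, sector 1 (CDX2 13.1) and 1683 in section 3, sector 5 (CDX2 5.55). The last of these also held 42.8 TPM of GCM1, a trophoblast factor. Section 3, sector 4 had 11.3 TPM of CDX2 with 42.5 of CGA and 10.1 of GCM1. Section 4, sector 1 had 0.0427 of CDX2 with 725 of CGA and 9.32 of GCM1. The highest CDX2 values of embryo 1 were 16.2 in section 4, sector 4 and 14.6 in section 3, sector 1. They came with 119 and 249 TPM of CGA, 14.2 and 0 of GCM1, and 1586 and 926 of COL3A1. COL3A1 was at 770 in section 1, sector 1, against 40.04 in section 2, sector 1 and 85.2 in section 3, sector 5. High CDX2 was thus recorded with COL3A1 as well as with CGA, and which of these CDX2 follows was not tested.

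Over the embryos the summed TPM of the 10 trophoblast markers in the table was 12.0 to 4836 in E18 embryo 1 (median 131), 14.9 to 301 in E18 embryo 2 (median 46.1), 48.3 to 1683 in E20 sections 1 to 5 and 7.89 to 146 in E20 sections 6 and 7. GCM1 was listed at 0 in 6 of 15, 16 of 35, 20 of 28 and 8 of 8 of these regions. CGA alone made up 4737, 153.8, 1658 and 128 TPM of the highest sums, in the same order. In E18 embryo 2 the highest CGA value, 153.8 TPM, fell in section 6, sector 7, the region highest in CDX2. The part of trophoblast RNA in the CDX2 values was not tested.

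The following correlations describe 50 E18 regions on log2(TPM + 1) centred within the embryo. Regions of an embryo, and of a section, are not independent, so no p is given. The 3 CDX genes ran together, at r = 0.59 for CDX1 with CDX2, 0.54 for CDX2 with CDX4 and 0.52 for CDX1 with CDX4. That was a feature of E18 embryo 2, where r was 0.68, 0.67 and 0.56, while in E18 embryo 1 it was 0.26, 0.04 and -0.04. NKX1-2 ran with SALL3 (0.46, and 0.42 and 0.48 in the single embryos), with CDX2 (0.43) and with CDX1 (0.39). GREB1 ran against both NKX1-2 and SALL3 (-0.44 each) in each E18 embryo.

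Regions were also counted at a level of at least 5 TPM, chosen after the values were seen. NKX1-2 itself reached it in 24 of 35 regions of E18 embryo 2 and 8 of 15 of E18 embryo 1, against which the counts with NKX1-2 are to be read. CDX1 reached it in 11 of 50 E18 regions, all of embryo 2, and 10 of these also held NKX1-2 at that level. CDX2 reached it in 22 regions. All 15 such regions of E18 embryo 2 also had NKX1-2 at 5 TPM or more, but 3 of 7 in E18 embryo 1. SALL3 reached it in 15 regions, of which 13 held NKX1-2 and 2 had COL3A1 at 100 TPM or more. GREB1 reached it in 23 regions, which included 15 of the 15 with COL3A1 at 100 TPM or more and 14 of the 14 with GABRP at 10 TPM or more.

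The genes also differed in their tissue company. CDX1 ran with the mean of the growth zone list at r = 0.58, CDX2 and NKX1-2 at 0.52 each, and GREB1 at -0.07. NKX1-2 ran with MESP1 at 0.65, and SALL3 with the epiblast list at 0.53 and with SOX2, a factor of epiblast and neural cells, at 0.44. GREB1 ran with the mesenchyme list at 0.87 and against the epiblast list at -0.85. With the number of genes detected the members had r from -0.17 to 0.04 over these regions, though NKX1-2 reached -0.41 in E18 embryo 2. The signs differed between members in E18 embryo 1, with -0.44 for GREB1, -0.36 for CDX2 and 0.39 for NKX1-2.

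With the HOX genes, the CDX genes and GREB1 went one way and NKX1-2 and SALL3 the other. Over 31 HOX genes the median r was 0.62 for GREB1 (30 above 0), 0.43 for CDX2 (30 above 0), 0.35 for CDX4 (30 above 0) and 0.32 for CDX1 (31 above 0). It was -0.19 for NKX1-2 (6 above 0) and -0.26 for SALL3 (2 above 0). The highest r of GREB1 was 0.84, with HOXA13.

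**Figure D5:**
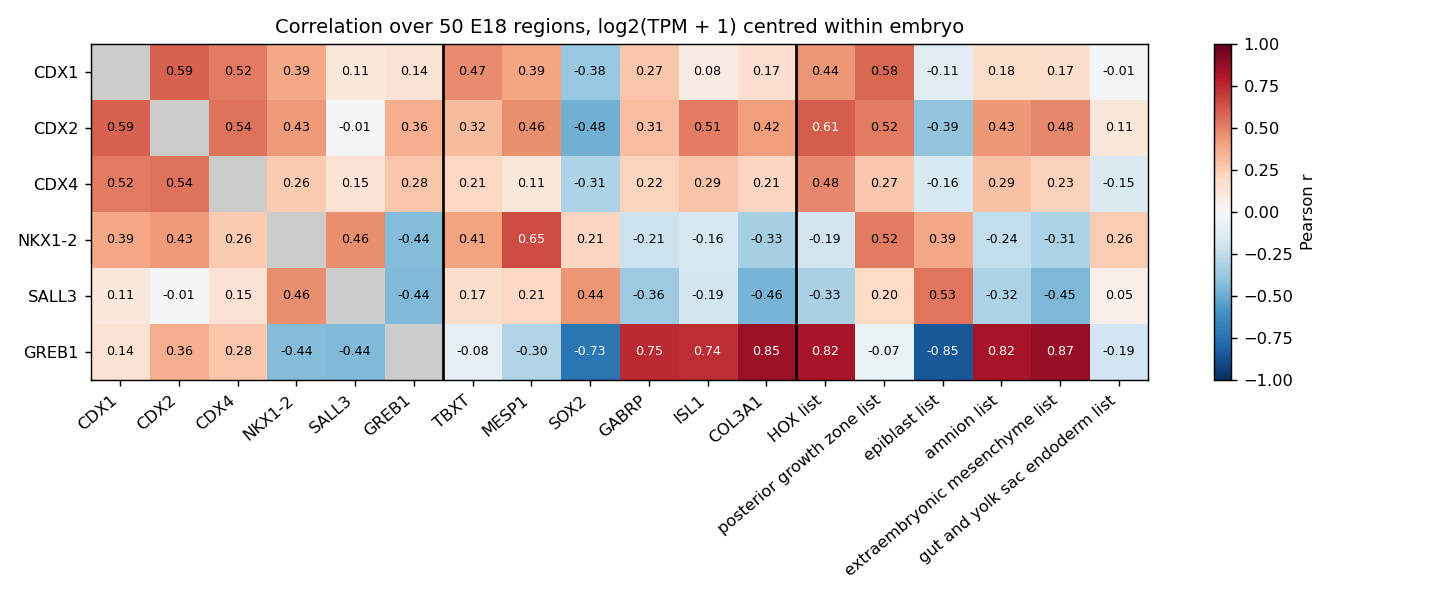
Pearson r of each gene with the other members, with 6 marker genes and with list means over 50 E18 regions, log2(TPM + 1) centred within the embryo; red is above 0 and blue below. GREB1 is red with COL3A1, the HOX list and the mesenchyme list (0.85, 0.82 and 0.87), where NKX1-2 and SALL3 are blue.

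The genes most alike in pattern were taken from 11478 candidates over the same 50 regions, with a mean TPM of at least 2 and r above 0 in each E18 embryo. For CDX1 they included MSGN1 (0.66), WNT8A (0.61), FZD10 (0.61) and WNT5B (0.60). In E18 embryo 1, where CDX1 did not exceed 0.234 TPM, r was 0.83, 0.42, 0.18 and 0.21 in this order. In E18 embryo 2 it was 0.66, 0.64, 0.65 and 0.64. MSGN1 is a factor of presomitic mesoderm and FZD10 a WNT receptor. For CDX2 they included MSX1, a homeobox gene induced by BMP signals (0.85), ZNF703 (0.76), HOXB6 (0.69) and FBN2, a fibrillin of microfibrils (0.69). MSX1 was close to CDX2 in each E18 embryo, at 0.94 and 0.84.

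For CDX4 they were WNT5B (0.62), HMCN1 (0.55), CDX2 (0.54), LPL, lipoprotein lipase (0.53), and SRSF8 (0.52), of which WNT5B and CDX2 reached 0.10 and 0.04 in E18 embryo 1. For NKX1-2 they were CCK, a peptide hormone gene (0.70), ARHGAP11A (0.67), VENTX, a homeobox gene (0.65), MESP1 (0.65) and KIF2A, a kinesin (0.64). For SALL3 they were PARP1, a DNA repair enzyme (0.68), QTRT2 (0.68), RPUSD3 (0.66), ARG2 (0.65) and RUVBL2 (0.65). For GREB1 they included SULT1C4 (0.89), CCDC80 (0.88) and the collagen VI chains COL6A2 (0.88) and COL6A3 (0.87), with r of at least 0.79 in each E18 embryo.

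Outside the E18 regions CDX2 kept a low level in E20 sections 1 to 5, with 16 of 28 regions at a TPM of at least 1. There it ran with CDX4 at r = 0.55 and with the gut and yolk sac endoderm list at 0.40, and against COL3A1 at -0.49. CDX4 was listed at 0 in 19 of these 28 regions. With the number of genes detected CDX1, CDX2 and CDX4 had r of 0.35, 0.34 and 0.34 in these sections, and GREB1 of -0.40. The part of genes detected in the other r values was not tested. The region highest in CDX4 there, section 4, sector 2, held 6.40 TPM of CDX4, 6.39 of CDX2 and 18783 of AFP, a yolk sac endoderm product. In E20 sections 6 and 7 CDX2 ran with COL3A1 instead (0.82 over 8 regions), and GREB1 did so at 0.96.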

How the data were processed

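The deposited file is a table of TPM per gene and region, made by the authors. The submitters' processing notes name fastp, HISAT2 and StringTie without versions; for the build and the gene models, "not given in the sources used here" applies, and neither coordinates nor sequences are stated. Columns sum to 495547 to 777988 TPM, since not all genes are in the table used here. All 86 columns matched a label, with 0 unmatched. Since TPM does not keep counts, the depth is unknown and no counting interval or floor is given; an exact 0 is "listed at 0". ACTB and GAPDH were at 0 in 0 regions. There were 0 identical columns, and the highest r between any 2 regions was 0.961.

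Genes with 10 or more regions at a TPM of 1 or more were tested as log2(TPM + 1) with limma 3.58.1 (eBayes with trend) and statmod 1.5.0 in R 4.3.3, with Benjamini-Hochberg adjustment over all genes tested at 0.05. Fold changes on this scale understate the change of low genes. Trend and slope fits use single regions, and beyond the named block their SE and p-values take the regions for independent samples. Replicates are embryos, and nothing else in the labels says how they relate. Correlations used scipy 1.17.1 and numpy 2.4.6 in Python 3.11.15, tables with pandas 2.3.3 and pictures with matplotlib 3.10.9. Each fit was first tested on simulated data.

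The members and lists were chosen with earlier results of these data known. Named beside the members are TBXT, for each member the 5 genes most correlated over the E18 regions (some are not reported here), and up to 5 called genes in each direction of the posterior growth zone, HOX and relatives lists (SALL1, SALL2, SALL4, GREB1L, NKX1-1). Of 37 HOX genes 31 were tested. The primitive streak and nascent mesoderm list had 10 of 13 tested genes rise with TBXT. Other genes were named for their role as markers after their values were seen. Alternatives were a pseudocount of 0.1, the filter dropped or made stricter (20 or more regions at a TPM of 5 or more), quantile normalization, section means or medians, section blocks, a covariate for genes detected and the omission of each embryo.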

Additional observations from a re-analysis of the deposited data

How the results depend on the processing

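Of the member values recomputed under alternatives, 299 kept their direction and their side of the threshold, 12 lost a call, 10 gained one and 24 changed sign, all 24 from values that had not passed. The alternatives without mitochondrially encoded genes, without the region highest in CDX2, with TBXT or the score as second term, and quantile normalization of the slopes compared between embryos were chosen after seeing the data. No paired analysis was possible because the E18 and E20 embryos are different embryos and the labels give no pairing between them. A stage test without an E18 embryo has no residual degrees of freedom and gave values without a test. The cause of each change below was not tested.

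For the stage, genes called went from 1734 (402 of them higher) to 857 without mitochondrially encoded genes, 6 with E20 sections 6 and 7 only and 0 with medians over regions (3383 of the genes had an unadjusted p under 0.05 as reported), and members called from 1 to 0 in each. Quantile normalization gave 796 higher of 1475. CDX4 turned to 0.034 and GREB1 to 0.56 after it, and GREB1 to 0.33 with medians.

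Along sections, genes called went from 1628 to 502 with genes detected as a covariate, 27 with section means and 6 when the E20 embryo was split before section 6 into separate groups, and from 9 to 2411 when embryos were left out, the 9 without E20. Of those called, 852 of 1352 were higher after quantile normalization, against 1341 as reported. CDX2 turned to -0.035 after quantile normalization. CDX4 turned to -0.067 there, -0.00014 without mitochondrially encoded genes, -0.11 with the covariate, -0.16 with section means, -0.048 with separate E20 groups and -0.15 without the region highest in CDX2. With separate E20 groups NKX1-2 turned to -0.32 and SALL3 to -0.10. Leaving out embryos gave -0.28 to 0.22 for CDX4, -0.36 to 1.15 for NKX1-2, -0.10 to 0.60 for SALL3 and -0.21 to 0.051 for GREB1.

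Along sectors, genes called went from 493 to 253 with a pseudocount of 0.1 and from 0 (without E18 embryo 2) to 1129 (without E18 embryo 1) when embryos were left out. Quantile normalization gave 405 higher of 724, against 377 of 493 as reported. Members called went from 0 to 2 with the covariate, and from 0 to 2 over left-out embryos. Genes whose sector slope differed between embryos went from 73 to 164 after quantile normalization, and those whose slope on the score differed from 249 to 377.

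For TBXT, genes called went from 204 to 80 with section blocks, 1 in E20 sections 6 and 7 and 99 to 276 without an E18 embryo. Members called went from 1 to 0 with a pseudocount of 0.1, the stricter filter (which removes CDX1), quantile normalization, no mitochondrially encoded genes, E20 sections 6 and 7, and without either E18 embryo (0 to 0), and to 2 with the score as second term, where GREB1 turned to 0.046. Without an E18 embryo CDX2 ran from -0.24 to 0.39, CDX4 from -0.16 to 0.17 and SALL3 from -0.13 to 0.12. In E20 sections 6 and 7 CDX2 turned to -0.043 and CDX4 to -0.030. For the amnion score, genes called went from 4599 to 974 in E20 sections 6 and 7 and to 763 to 4009 without an E18 embryo, and members called from 2 to 1 in the former. CDX1 turned to -0.14 there and ran from -0.030 to 0.38 without an E18 embryo.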
